A study of Homo sapiens with 4 samples.

Results

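RNA of 10 genes of the BCL2 family and the apoptosome was compared between 2-D cultures and 3-D scaffolds of Elf1 cells. The genes were given as a list of symbols, and all 10 were matched by their Ensembl identifiers among the 60564 genes of the count files. They are the pore-forming effectors BAX and BAK1, the BH3-only proteins BBC3 (PUMA), PMAIP1 (NOXA) and BCL2L11 (BIM), the survival proteins BCL2, BCL2L1 (BCL-X) and MCL1, and the apoptosome genes APAF1 and CYCS. Elf1 is a human embryonic stem cell (ESC) line derived as naïve cells from an embryo at the cleavage stage. The line was kept on mouse feeder cells and moved to feeder-free plates before encapsulation. Per the labels, the 2-D cells grew attached to plastic coated with Matrigel. The 3-D cells were dissociated, enclosed in scaffolds that form when thiol and acrylate 8-arm PEG polymers (PEG-8-SH and PEG-8-Acr) are mixed, and kept there for 21 days in the same ESC medium. That medium held FGF2, LIF and inhibitors of GSK3 and MEK. The paper describes routine passaging and rapid growth in 2-D, and slower growth without passaging in 3-D. Passaging, time in culture, growth rate and contact with Matrigel therefore cannot be told apart from the scaffold here. Each condition had 2 biological replicates of this single line, so the 4 libraries describe Elf1 and no other line.

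The BCL2 family controls whether the outer mitochondrial membrane is opened, the step that commits a cell to intrinsic apoptosis. BAX and BAK1 form the pores, the survival proteins hold them back, and the BH3-only proteins carry stress signals and neutralise the survival proteins. Once the membrane is open, cytochrome c (CYCS), otherwise an electron carrier of the respiratory chain, leaves the mitochondria and binds APAF1, which assembles into the apoptosome and activates caspase-9. Human ESCs are known to be primed for apoptosis, and much of the control of this family is exerted on the proteins, which RNA does not show.

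Counts summed to between 18276147 and 33833778 per library, and both 3-D libraries were shallower than both 2-D libraries. Mitochondrially encoded genes held 5.10 and 5.30% of the counts in 2-D and 8.33 and 8.50% in 3-D. Of 22555 genes tested, 1024 were called higher and 758 lower in 3-D by the quasi-likelihood test of edgeR, at a Benjamini-Hochberg (BH) adjusted p below 0.05. Scaling by library size alone gave 514 and 1872. The 7 core pluripotency markers were present in every library, with summed levels of 4070 to 4168 normalized CPM (counts scaled to a common library size with TMM factors). The 8 markers of naïve cells summed to 109 to 112 normalized CPM in 2-D and 119 to 122 in 3-D. Of these, KLF5 was called higher in 3-D, KLF17 had 16 to 29 counts and DPPA5 at most 4 counts per library, and the other 5 had at least 103 counts. The 6 markers of primed cells summed to 1107 to 1154 normalized CPM, of which CD24 gave 866 to 904, and SFRP2 and THY1 were called higher in 3-D. Endoderm markers summed to 5.77 and 6.28 in 2-D and 7.48 and 7.85 in 3-D. Mesoderm markers summed to 55.2 and 55.0 in 2-D and 60.2 in both 3-D libraries. Sums for neural ectoderm (5.29 to 6.26) and trophoblast (0.290 to 0.583) overlapped between conditions. No tested gene of these germ layer and trophoblast lists was called. Of the 4 fibroblast markers tested, COL1A1 and COL3A1 were called higher in 3-D, and COL1A2 and PDGFRB were not called. The summed list ranged from 453 to 460 normalized CPM in 2-D and from 461 to 503 in 3-D. COL1A2 gave 300 to 324 of this. PDGFRB had 147 to 271 counts per library, while the untested LUM had 3 to 17 and the untested DCN at most 6. With the 2-D libraries thinned to 3-D depth, BCL2L1 was called higher and APAF1 and CYCS lower in 3-D, as without thinning. The same 3 members were called when library totals left out ribosomal protein, histone and mitochondrial genes. The median log2 fold change of the 10 genes was −0.089 and −0.087 in these fits, beside −0.087 without either change. Any other part of depth or of the mitochondrial share in these results, and the part of the markers, was not tested. In bulk libraries, fewer cells with an RNA and less of that RNA per cell cannot be told apart.

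All 10 genes passed edgeR's filter on low counts. In 3-D, CYCS fell by 12.2%, APAF1 fell by 11.7% and BCL2L1 rose by 10.2%, and the other 7 did not pass the threshold. These 3 of 10 genes stand beside a background of 7.9% of all tested genes called in either direction (4.54% higher and 3.36% lower in 3-D). The 2 conditions did not overlap in 7 of the 10 genes, with 3-D lower in 5 and higher in 2, and the same held for 50.5% of all tested genes. The median log2 fold change of the 10 was −0.09, with a range from −0.23 (BCL2) to 0.14 (BCL2L1), beside −0.00013 over all tested genes. Errors written with ± are SDs (n = 2), and a fold change is of 3-D over 2-D. Its standard error was computed as the absolute log2 fold change over the square root of the edgeR F statistic. Its 95% interval was computed from this standard error and a t quantile.

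Levels were compared between genes as normalized CPM per kilobase of exon. The length counts every annotated exon base of a gene, not only those of the expressed isoform. Agreement between libraries cannot show a bias from this. On this scale MCL1 was the most abundant member, at 66.6 to 70.4 over the 4 libraries, followed by CYCS at 46.5 to 53.5. BAX lay at 36.7 to 40.2 and PMAIP1 at 32.2 to 35.1, so a pore-forming effector and a BH3-only transcript were both abundant in these ESCs. BCL2L1 (17.7 to 19.8), BAK1 (12.8 to 13.8), APAF1 (6.42 to 7.59), BCL2L11 (5.42 to 6.10) and BBC3 (4.30 to 4.94) followed. BCL2, the founding member of the family, was lowest at 0.243 to 0.354, and the mean level of MCL1 was 222 times that of BCL2. No 2 neighbours in this order overlapped between libraries, so the order was the same in every library of both conditions.

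**Figure D1:**
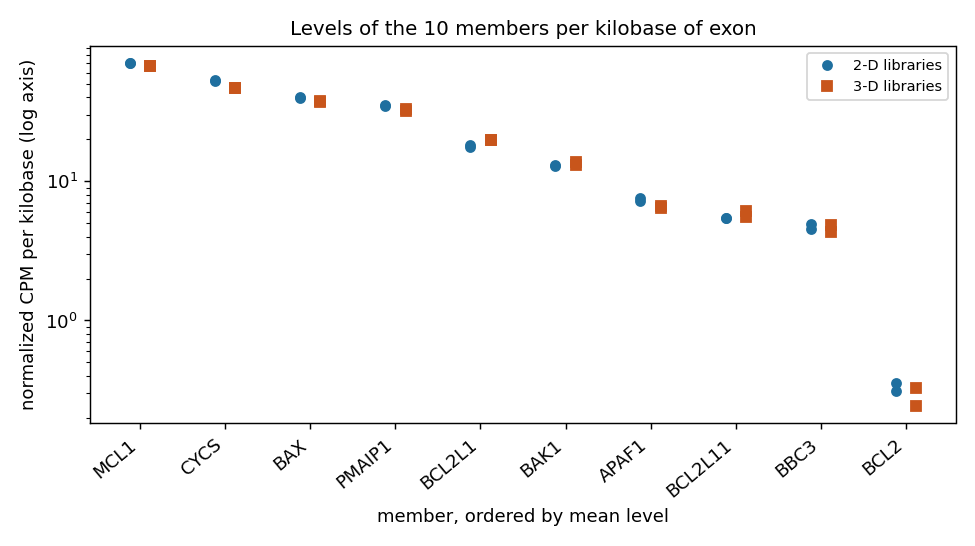
Normalized CPM per kilobase of exon (log axis) of the 10 members, ordered by mean level, with 1 point per library (circles 2-D, squares 3-D). The order runs from MCL1, with a mean of 68.5, to BCL2, with a mean of 0.308, and the 2 conditions lie close together for each gene.

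Among the survival genes, BCL2L1 rose and MCL1 and BCL2 did not pass the test. BCL2L1 encodes BCL-XL, which holds BAX and BAK1 inactive, and by alternative splicing the short death-promoting BCL-XS, which gene counts do not separate. It lies on chromosome 20 from 31664452 to 31723989 (hg38, minus strand, ENSG00000171552.13). Its normalized CPM were 75.8 and 74.3 in 2-D against 83.0 and 82.5 in 3-D. The conditions did not overlap, and the gap between them was larger than the gap between replicates. The log2 fold change was 0.14 (standard error 0.03, interval 0.07 to 0.22, edgeR quasi-likelihood, BH-adjusted p = 0.0259). This call was lost with DESeq2 at the same fold change (0.14, adjusted p = 0.243), while the change shrank to 0.08 when scaled by library size alone or with length and GC offsets (a correction for the length and GC content of each gene), and it was also lost without 2-D replicate 1 (adjusted p = 0.129) or 2-D replicate 2 (adjusted p = 0.301), where it was 0.15 and 0.13. The antisense gene ABALON shares 41.3% of the exonic bases of BCL2L1 and had 668 to 1274 counts per library. With its counts added to BCL2L1, an alternative chosen after seeing the data, the change was 0.11 (edgeR quasi-likelihood, BH-adjusted p = 0.0404). The strand setting was not given, so reads in the shared bases may be in neither count, which the addition cannot show.

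MCL1 encodes a short-lived survival protein that also binds BAK1. Its normalized CPM were 436 and 438 in 2-D and 414 and 416 in 3-D, so the libraries of a condition were nearly equal and both 3-D libraries lay below both 2-D libraries. Its log2 fold change was −0.08 (interval −0.14 to −0.01, edgeR quasi-likelihood, BH-adjusted p = 0.153), and when scaled by library size alone it was −0.14 and passed (adjusted p = 0.0108). BCL2 reached 3.91 and 4.47 normalized CPM in 2-D against 3.06 and 4.12 in 3-D, from 63 to 138 counts per library, and the conditions overlapped. Its log2 fold change of −0.23 had an interval from −0.61 to 0.15 (edgeR quasi-likelihood, BH-adjusted p = 0.507). Leaving out 3-D replicate 1 gave −0.02, leaving out 3-D replicate 2 gave −0.45, and leaving out 2-D replicate 2 gave −0.13.

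**Figure D2:**
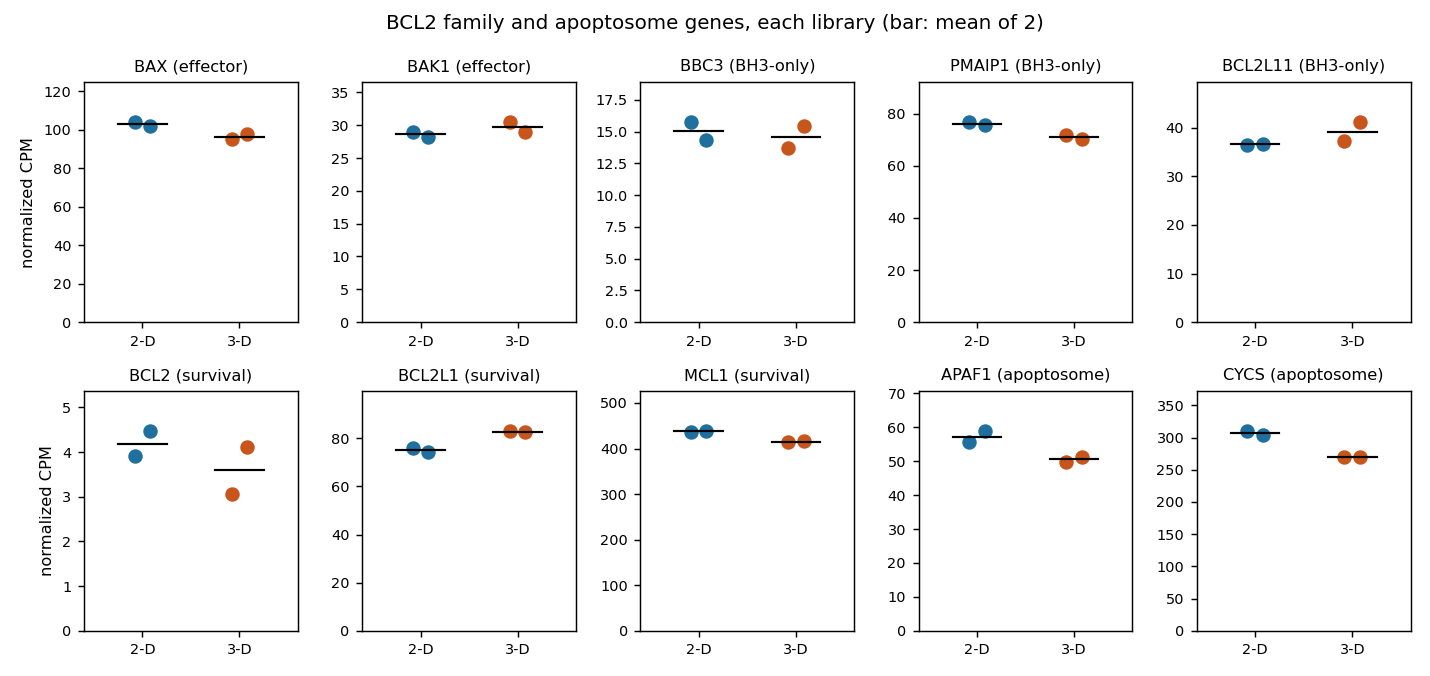
Normalized CPM of each member in the 4 libraries, 1 panel per gene with its role in parentheses, each axis starting at 0, points for libraries and bars for the mean of 2. CYCS and APAF1 lie lower and BCL2L1 higher in both 3-D libraries, and the points of BAK1, BBC3 and BCL2 overlap between conditions.

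The pore-forming effectors did not pass the test. BAX, which moves from the cytosol to the mitochondria when it is activated, reached 104 and 102 normalized CPM in 2-D against 94.99 and 97.6 in 3-D, without overlap. Its log2 fold change was −0.10 (standard error 0.03, interval −0.17 to −0.03, edgeR quasi-likelihood, BH-adjusted p = 0.0907). It passed when scaled by library size alone (−0.16, adjusted p = 0.00934), with the length and GC offsets (−0.14, adjusted p = 0.0208) and without 3-D replicate 2 (−0.12, adjusted p = 0.0358). BAK1, which sits in the outer mitochondrial membrane, reached 29.0 and 28.2 normalized CPM in 2-D against 30.5 and 29.0 in 3-D, and its conditions overlapped. Its log2 fold change of 0.06 (interval −0.08 to 0.19, edgeR quasi-likelihood, BH-adjusted p = 0.699) turned to −0.0091 when scaled by library size alone, and it ranged from 0.02 to 0.09 when 1 library was left out. The longest BAK1 transcript aligned over 97.0% of its length with 97.8% identity to chromosome 20 from 32688930 to 32691054, where the pseudogene BAK1P1 is annotated with 7 to 19 counts per library.

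The 3 BH3-only genes did not pass either. PMAIP1, whose protein binds MCL1 and promotes its degradation, reached 76.7 and 75.7 normalized CPM in 2-D against 71.6 and 70.3 in 3-D, with both 3-D libraries lower. Its log2 fold change was −0.10 (interval −0.18 to −0.02, edgeR quasi-likelihood, BH-adjusted p = 0.110), and it was −0.17 and passed when scaled by library size alone (adjusted p = 0.0113), and −0.04 with the length and GC offsets. BBC3, a p53 target whose protein binds all survival proteins, reached 15.7 and 14.4 normalized CPM in 2-D against 13.7 and 15.5 in 3-D. Its conditions overlapped, and its log2 fold change of −0.05 (interval −0.25 to 0.15, edgeR quasi-likelihood, BH-adjusted p = 0.821) turned to 0.017 without 2-D replicate 1 and to 0.04 without 3-D replicate 1, and it was −0.14 without 3-D replicate 2. BCL2L11, another BH3-only gene that growth factor signaling holds down, reached 36.5 and 36.6 normalized CPM in 2-D against 37.2 and 41.1 in 3-D. Both 3-D libraries were above both 2-D libraries, but the 3-D replicates lay farther apart than the first of them from 2-D, and the log2 fold change of 0.10 had an interval from −0.03 to 0.23 (edgeR quasi-likelihood, BH-adjusted p = 0.401). Leaving out 3-D replicate 1 gave 0.17, and leaving out the other gave 0.03.

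Both apoptosome genes fell. CYCS lies on chromosome 7 from 25118656 to 25125260 (hg38, minus strand, ENSG00000172115.8). It reached 310.1 and 304 normalized CPM in 2-D against 269.0 and 269.6 in 3-D, with the 3-D replicates nearly equal and far below 2-D. The log2 fold change was −0.19 (standard error 0.03, interval −0.25 to −0.12, edgeR quasi-likelihood, BH-adjusted p = 0.00213), and the call held under all 18 alternatives run for this gene, with adjusted p of at most 0.0269. APAF1 lies on chromosome 12 from 98645290 to 98735433 (plus strand, ENSG00000120868.13). It reached 55.6 and 58.9 normalized CPM in 2-D against 49.8 and 51.3 in 3-D, again without overlap. Its log2 fold change was −0.18 (standard error 0.05, interval −0.28 to −0.08, edgeR quasi-likelihood, BH-adjusted p = 0.0338). The call was lost with DESeq2 at the same fold change (−0.18, adjusted p = 0.206), without 2-D replicate 2 (−0.14, adjusted p = 0.381) and without 3-D replicate 1 (−0.16, adjusted p = 0.0766). ANKS1B, on the opposite strand, shares 9.67% of the exonic bases of APAF1 and had 115 to 224 counts per library.

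**Figure D3:**
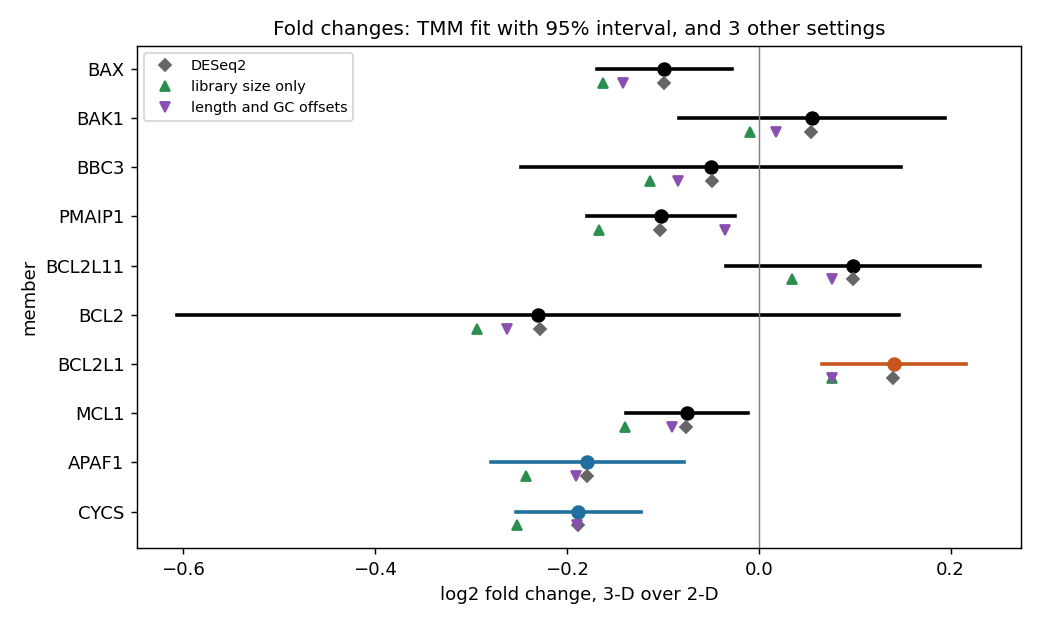
Log2 fold change of 3-D over 2-D for each member, as circles with 95% intervals from the edgeR fit (orange called higher, blue called lower, black not called), and below each circle the value with DESeq2, when scaled by library size alone and with length and GC offsets. Scaling by library size alone moved every member downward, BCL2L1 from 0.14 to 0.08 and CYCS from −0.19 to −0.25.

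CYCS has many processed pseudogenes, which its reads can also match. GENCODE annotates 42 under CYCSP symbols, of which 23 had a count and 12 had more than 10 counts over the 4 libraries. Their summed counts were 321 and 301 in 2-D and 223 and 168 in 3-D, 3.33% of those of CYCS over all libraries. CYCSP6, on chromosome 2 from 78412793 to 78413094, held most of them, with 176 and 171 counts in 2-D and 131 and 93 in 3-D. The next was CYCSP10 on chromosome 3, with 26 to 40 counts per library. The other 10, CYCSP2, CYCSP11, CYCSP24, CYCSP29, CYCSP38, CYCSP40, CYCSP41, CYCSP45, CYCSP52 and CYCSP55, had 1 to 25 counts per library. Adding all of these counts to CYCS left the log2 fold change at −0.18 (edgeR quasi-likelihood, BH-adjusted p = 0.00285). The multi-mapping setting was not given, so reads that match both may be in neither count. The addition cannot show their effect.

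The promoters of the 3 genes that passed the test, and of BAX for its motifs, are shown as the bases just before the start site, 5′ to 3′ on the gene's strand, from RefSeq on GRCh38.p14. Each stretch stops where the gene begins in GENCODE. Capitals mark matches, on either strand, to the E-box CACGTG, the NRF1 core GCATGCGC, the E2F motifs TTTGGCGC or TTTCGCGC, the ETS motif ACTTCCGG and the p53 decamer. The stretches are chr7:25125261-25125510 (minus strand) for CYCS, chr12:98645040-98645289 (plus strand) for APAF1, chr20:31723990-31724213 (minus strand) for BCL2L1 and chr19:48954625-48954814 (plus strand) for BAX.
CYCS: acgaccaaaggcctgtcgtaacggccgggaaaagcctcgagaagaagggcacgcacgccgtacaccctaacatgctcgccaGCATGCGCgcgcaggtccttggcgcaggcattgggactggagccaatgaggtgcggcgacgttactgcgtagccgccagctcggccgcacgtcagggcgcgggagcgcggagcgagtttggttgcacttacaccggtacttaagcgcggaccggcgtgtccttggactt
APAF1: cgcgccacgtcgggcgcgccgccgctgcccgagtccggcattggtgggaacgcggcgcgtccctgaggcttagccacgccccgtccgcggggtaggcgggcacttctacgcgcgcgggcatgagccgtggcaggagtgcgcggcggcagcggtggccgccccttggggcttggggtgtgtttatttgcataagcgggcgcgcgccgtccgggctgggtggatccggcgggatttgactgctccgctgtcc
BCL2L1: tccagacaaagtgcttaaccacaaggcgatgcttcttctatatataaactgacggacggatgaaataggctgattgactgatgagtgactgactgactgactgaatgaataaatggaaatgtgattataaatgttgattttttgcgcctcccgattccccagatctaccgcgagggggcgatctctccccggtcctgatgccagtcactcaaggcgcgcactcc
BAX: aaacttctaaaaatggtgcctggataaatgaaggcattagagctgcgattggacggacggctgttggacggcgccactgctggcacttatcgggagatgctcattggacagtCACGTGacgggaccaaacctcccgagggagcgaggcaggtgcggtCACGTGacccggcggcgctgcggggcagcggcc

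The CYCS stretch holds a single NRF1 core, which begins 169 bases before the start site. NRF1 is a known activator of nuclear genes of the respiratory chain, and 3.05% of the 35116 promoters of the same table (250 bases before to 50 after the start site) hold this motif. BAX had 4 E-boxes in its full window, beginning at −138, −93, −45 and −14, where 7.26% of promoters hold at least 1, and the last pair lies inside the gene as GENCODE annotates it. E-boxes are bound by MYC with MAX and by other factors. BBC3 had 1 E-box, BCL2L1 had an ETS motif just after its start site, at 10 (4.14% of promoters), and BAK1 had 1 p53 decamer (6.63% of promoters). MCL1 was not searched. No window of the 9 other members held an E2F motif (1.15% of promoters), and none of these letters lay in the windows of APAF1, BCL2, BCL2L11 or PMAIP1, or in the other RefSeq promoter of BCL2L1. The motifs were chosen after the RNA values and the sequences had been seen, so the matches describe the windows and say nothing of binding.

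A ratio of 2 genes within a library does not depend on how libraries are scaled to each other. It was not corrected for effects of length and GC content that differ between libraries. With the length and GC offsets, log2 fold changes were 0.08 for BCL2L1, −0.09 for MCL1, −0.14 for BAX and −0.04 for PMAIP1. Without them these were 0.14, −0.08, −0.10 and −0.10. The ratios use counts per kilobase and are given on the log2 scale without a test, because 2 libraries against 2 cannot go below p = 0.333 in a two-sided exact permutation test. BAX over BCL2L1, an effector over a protein that restrains it, was 1.15 and 1.16 in 2-D and 0.89 and 0.94 in 3-D. The 3-D mean differed from the 2-D mean by −0.24, and the pooled SD of replicates was 0.024. MCL1 over BCL2L1 was 1.96 and 1.99 in 2-D and 1.75 and 1.77 in 3-D, so the survival transcripts shifted toward BCL2L1 in both 3-D libraries. Of the summed level of the 3 survival genes, BCL2L1 made up 20.4 and 20.01% in 2-D and 22.8 and 22.6% in 3-D, and MCL1 made up 79.2 and 79.6% and then 76.9 and 77.0%.

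The pair of BAK1 with its restrainers went in opposite directions. BAK1 over MCL1 was −2.42 and −2.47 in 2-D and −2.27 and −2.35 in 3-D, while BAK1 over BCL2L1 was −0.46 and −0.47 in 2-D and −0.52 and −0.59 in 3-D. PMAIP1 over MCL1 was −0.9996 and −1.02 in 2-D and −1.02 and −1.06 in 3-D, and BBC3 over MCL1 was −3.83 and −3.96 and then −3.95 and −3.78. Both ratios of a BH3-only gene to MCL1 overlapped between conditions. BCL2L11 over BCL2 and BCL2L1 over BCL2 were higher in 3-D by 0.33 and 0.38, with pooled SDs of replicates of 0.17 and 0.25 and 63 to 138 counts of BCL2 per library. APAF1 over CYCS was −2.90 and −2.79 in 2-D and −2.85 and −2.82 in 3-D, so the 2 apoptosome genes kept their proportion within the spread of replicates. The summed level of the 5 effector and BH3-only genes was 1.12 and 1.09 times that of the survival genes in 2-D and 1.07 and 1.08 times in 3-D.

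**Figure D4:**
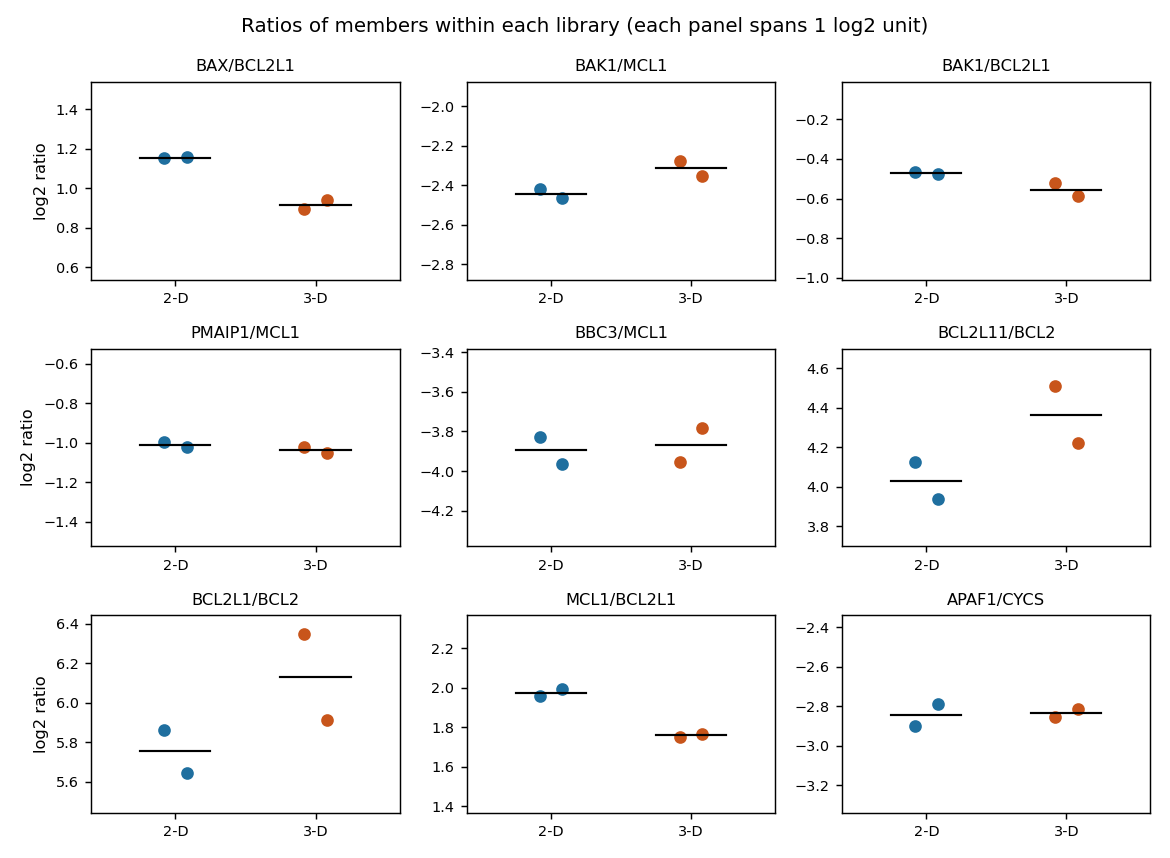
Log2 ratios of pairs of members within each library, in counts per kilobase, with points for libraries and bars for the mean of 2, every panel spanning the same range of 1 log2 unit. BAX over BCL2L1 and MCL1 over BCL2L1 are lower in both 3-D libraries, with means of 0.92 and 1.76 against 1.15 and 1.97.

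Members share chromosomes in 2 cases. BAX and BBC3 lie 1.72 Mb apart on chromosome 19, and PMAIP1 and BCL2 lie 3.22 Mb apart on chromosome 18. BCL2L1 lies in 20q11.21, a region that is often gained in cultured human ESCs. Of the 25 other tested genes within 1 Mb of BCL2L1, 1 was called higher and 0 lower. Their median log2 fold change was 0.05, and it was 0.11 over the 12 of them with at least 10 normalized CPM. Over all tested genes, 4.54% were called higher and 3.36% lower. Around the other members, the median at this level ranged from −0.11 (CYCS, 3 genes) to 0.10 (PMAIP1, 3 genes). Copy number was not tested. Around CYCS, 1 of 7 tested neighbours was called lower and 0 higher, and around APAF1 1 of 7 was called in each direction. The genes whose 4 values were most like those of CYCS, by the root mean square difference of centred log2 CPM over the 4 libraries, were MRPL53P1, TRMT2B and PSMB4 (0.0022, 0.0036 and 0.0041). With so few libraries such likeness is common, and 1240 genes lay within 0.05 of CYCS.

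Around the 10 members, 60 further genes of the apoptosis pathways were described in 9 lists, 54 of which were tested. Of these, 4 were called higher and 7 lower in 3-D, beside 4.54% higher and 3.36% lower of all tested genes, and the median log2 fold change was −0.01. Of the other survival genes, BCL2L2 (BCL-W) fell from 13.7 ± 0.881 to 10.8 ± 0.202 normalized CPM, a log2 fold change of −0.34 (edgeR quasi-likelihood, BH-adjusted p = 0.0426), a call lost without 2-D replicate 2 (−0.27, adjusted p = 0.313). BCL2A1 had 0 counts in every library, where 3 counts would make 0.0887 to 0.164 CPM. Of 11 other BCL2 family genes, BNIP3, a mitochondrial BH3-like protein of mitophagy and a hypoxia target, fell by 0.23 on the log2 scale (edgeR quasi-likelihood, BH-adjusted p = 0.0030), and the other 10 were not called.

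The 7 caspases were not called, with log2 fold changes from −0.19 to 0.20. CASP9, the partner of APAF1, had a log2 fold change of 0.20 (edgeR quasi-likelihood, BH-adjusted p = 0.371). Of 9 genes of mitochondrial release, the outer membrane channel gene VDAC3 fell by 0.13 (edgeR quasi-likelihood, BH-adjusted p = 0.0309), which was 0.10 and not called without 2-D replicate 2, and TMBIM6, which encodes the BAX inhibitor BI-1, had a log2 fold change of −0.0075. Neither cytochrome c partner passed, with 0.0071 for HCCS, the enzyme that attaches heme to cytochrome c, and 0.02 for CYC1.

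Inhibitors of apoptosis block caspases or ubiquitinate death signaling proteins. XIAP and BIRC2 fell by 0.14 and 0.17 on the log2 scale (edgeR quasi-likelihood, BH-adjusted p = 0.0165 and 0.0472), 2 of the 4 tested, where 3.36% of all tested genes were called lower. Both calls were lost without 2-D replicate 1 or 2-D replicate 2, and that of BIRC2 also without 3-D replicate 2. The other tested genes, BIRC5 and BIRC6, had log2 fold changes of −0.02 each. In this list 4 genes were too low to test, among them NAIP and XAF1 with at most 3 counts in every library. XAF1 is listed here but is not itself an inhibitor of apoptosis. Of the 8 genes for death receptors and their signaling proteins, 7 were not called. TNFRSF10B (DR5), a receptor for TRAIL and a p53 target, fell from 146 ± 2.43 to 129 ± 3.999 normalized CPM (log2 fold change −0.18, edgeR quasi-likelihood, BH-adjusted p = 0.00469).

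Of 5 genes for turnover of MCL1, HUWE1, a ubiquitin ligase that marks MCL1 for degradation, rose by 0.10 on the log2 scale (edgeR quasi-likelihood, BH-adjusted p = 0.0480), and USP9X, a deubiquitinase of MCL1, had −0.04. The list of apoptosome regulators held chaperones and other proteins, among them PTMA and ANP32A. PTMA, whose protein restrains apoptosome assembly, rose by 0.35, HSP90AA1 by 0.13 and ANP32A by 0.13, while HSPE1, the mitochondrial cochaperonin, fell by 0.54 (edgeR quasi-likelihood, BH-adjusted p = 0.00864, 0.0324, 0.0269 and 5.14e-06). PTMA reached 1564 and 1471 normalized CPM in 2-D against 2127 and 1729.8 in 3-D, with the 3-D replicates far apart but both above 2-D, and its call was lost with DESeq2 at a nearly equal fold change (0.35, adjusted p = 0.183). The change in PTMA fell to 0.19 when 3-D replicate 1 was left out and reached 0.49 when 3-D replicate 2 was, and for HSP90AA1 these values were 0.09 and 0.18. HSPA1A had 0 to 2 counts per library and was not tested. The calls of HUWE1, HSP90AA1 and ANP32A were each lost when scaled by library size alone, where their log2 fold changes were 0.04, 0.07 and 0.07, and without 2-D replicate 1 or 2-D replicate 2. The calls of BCL2L2, VDAC3, XIAP, BIRC2 and ANP32A were also lost with DESeq2 (adjusted p = 0.251, 0.194, 0.0723, 0.258 and 0.0891). With the length and GC offsets, HUWE1, HSP90AA1, ANP32A, VDAC3 and BIRC2 were not called (edgeR quasi-likelihood, BH-adjusted p = 0.351, 0.0775, 0.168, 0.0641 and 0.0934). The likelihood ratio test called none of HUWE1, HSP90AA1, ANP32A, BCL2L2, VDAC3, XIAP and BIRC2. The calls of BNIP3, TNFRSF10B and HSPE1 were kept in all 17 alternatives run for them.

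**Figure D5:**
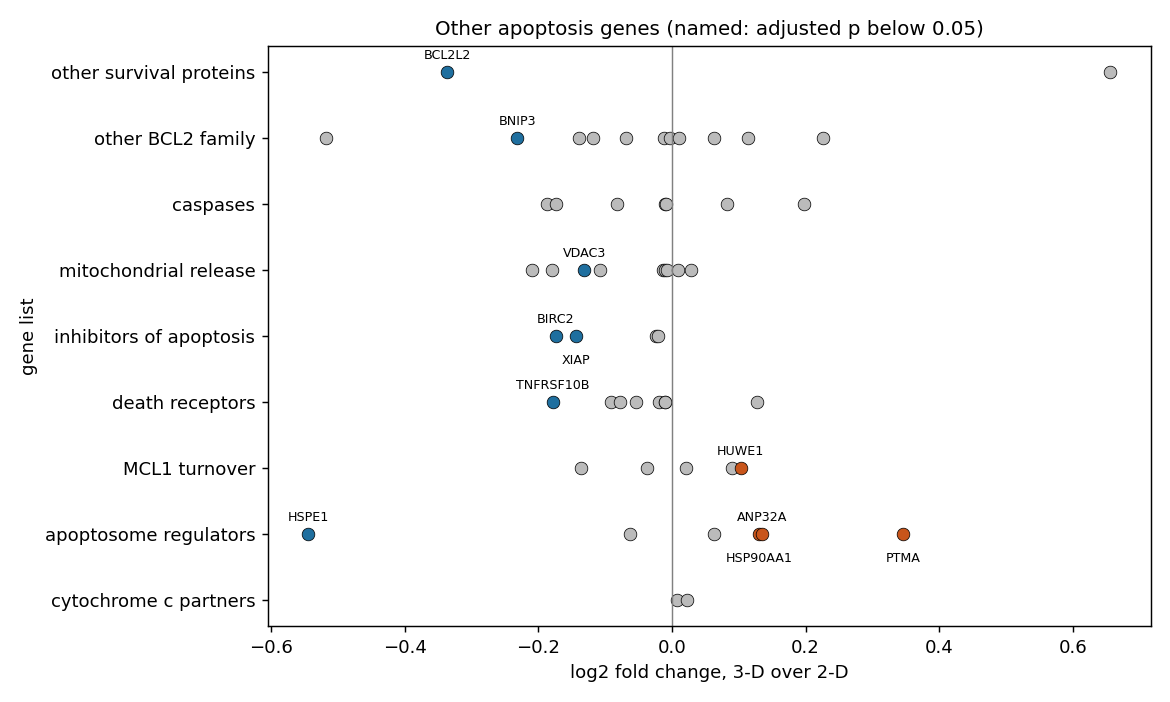
Log2 fold change of 3-D over 2-D of the tested genes of the 9 wider lists, 1 point per gene (orange called higher, blue called lower, grey not called). Most genes lie close to 0, and HSPE1 at −0.54 and PTMA at 0.35 are the called genes farthest from it.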

How the data were processed

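RNA of 4 libraries of Elf1 cells was analysed, 2 from 2-D culture and 2 from 3-D scaffolds, grouped by the sample labels. Libraries were ribosomal RNA-depleted and paired-end (150 bases). The authors trimmed reads with Trim Galore 0.6.3, aligned them to hg38 with HISAT2 2.1.0, and deposited raw counts per gene from featureCounts 1.6.4 with GENCODE release 30. Strand and multi-mapping settings were not given in the sources used here. The authors also deposited a normalized signal, which equals the counts divided by 1 DESeq2 (2.11.40.6) size factor per library. Columns with the authors' own fold changes and p-values were not used.

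Counts were tested with edgeR 4.0.16 (R 4.3.3): filterByExpr, TMM, quasi-likelihood F test on condition, Benjamini-Hochberg (BH) adjustment over 22555 genes, threshold 0.05. Of 60564 identifiers, 60295 matched GENCODE release 44, which gave positions and exonic lengths, and the rest held 0.122% of counts. Alternatives used DESeq2 1.42.0 and limma 3.58.1 (log2 of the deposited normalized signal plus 1). Transcripts were aligned to hg38 with minimap2 2.31-r1302. The scripts were tested on simulated data. The replicates are 2 biological replicates of 1 line per condition. The p-values weigh the difference between conditions against the spread between these samples, which the edgeR fit draws toward that of other genes. Members and lists were chosen with earlier results of these data known. Named were the 10 members, and of the wider lists every called gene, the gene with the highest mean normalized CPM of each list and genes with 3 or fewer counts in every library, besides pseudogenes of members with more than 10 counts over the libraries and the 3 genes most like CYCS. A result under this rule is not reported here. BIRC5, CASP9, CYC1 and USP9X, the motifs and the neighbours were chosen after their values were seen.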

Additional observations from a re-analysis of the deposited data

How the results depend on the processing

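Beside the 1 member called higher and 2 called lower, the likelihood ratio test, DESeq2 and limma-trend on the deposited normalized values each called 0 higher and 1 lower (CYCS), and library size as the only scaling called 0 higher and 5 lower. With length and GC offsets 0 members were called higher, with or without the replicate block. Over all genes (1024 higher, 758 lower) the likelihood ratio test called 651 and 488, DESeq2 511 and 284 (795 in all), and library size alone 514 and 1872. That scaling moved the median log2 fold change of all genes to −0.06 and the share of calls that were higher from 57.5 to 21.5%. Of the wider lists (4 higher, 7 lower), the likelihood ratio test called 1 and 3 and DESeq2 2 and 3. Higher calls there were 1 with library size alone, 1 with the offsets and 2 with the block and offsets, and lower calls were 4 with limma-trend and 4 with the 2-D libraries thinned to 3-D depth. Leaving out 1 library in turn gave 0 to 1 members higher and 1 to 3 lower, 560 to 1468 of all genes higher and 414 to 1175 lower, and 1 to 4 wider genes higher and 3 to 9 lower. The lone library was then assumed to vary like the other condition. BAK1 turned to −0.0091 with library size alone, and BBC3 ranged from −0.14 to 0.039 when 1 library was left out, with 0.017 without 2-D replicate 1. The causes were not tested, beyond fewer samples in the last case. The replicate numbers are shared by the conditions, but the deviations of same-numbered libraries did not correlate (−0.016). With the replicate block the same 3 members were called (1 higher, 2 lower), 2167 genes were called in all, and with the block and offsets 1229 genes were lower. Without the filter 2486 genes were called. BCL2 had 63 to 138 counts per library, and depth and replicate spread were not separated.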
